A study of Mus musculus with 4 samples.

Results

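In cultures of mouse bone-marrow progenitors entering the T lineage on OP9-Dll1 stromal cells, a small set of cells carried transcripts of natural killer (NK) cell receptors. The cells were chosen by their own UMI counts: a cell was taken when it had at least 1 unique molecular identifier (UMI) of at least 4 of 8 genes and no UMI of Cd8b1, a chain of the CD8 co-receptor of mature T cells. The 8 genes were Klrd1, Klrk1, Klrc1, Klrc2, Il2rb, Xcl1, Ncr1 and Tbx21. Only barcodes with 500 genes or more, and with mitochondrial UMIs below 10%, were considered. The rule gave 107 of 9332 kept cells in experiment 1 (1.15%, exact 95% Clopper-Pearson interval 0.941 to 1.38%) and 194 of 10214 in experiment 2 (1.90%, interval 1.64 to 2.18%), 301 of 19546 in all. They are called NK receptor-positive cells here, and all other kept cells of the same experiment serve as the comparison.

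For each experiment there was 1 mRNA library plus 1 hashtag library, which reads the antibody-bound barcodes that mark which of 8 cell samples a cell came from. All cultures carried a Bcl2 transgene, received IL-7 and Flt3 ligand at 10 ng/ml each, and were given retroviral vectors on day 2. For Runx1 gain of function, progenitors from B6.Bcl2 transgenic mice aged 8 to 10 weeks received MSCV-Runx1-mCherry or MSCV-empty-mCherry, and lineage-negative mCherry+ CD45+ cells were sorted on day 4 or 6. For loss of function, progenitors from B6.Cas9;Bcl2 transgenic mice received E42-gRunx1-hNGFR with E42-gRunx3-mTurquoise, with 3 guide pairs per gene, or the matching E42-gControl vectors against luciferase. Lineage-negative mTurquoise+ hNGFR+ CD45+ cells of that arm were sorted on day 5 or 8. Per the labels, experiment 1 spanned days 4 to 5 and experiment 2 days 4 to 8, and equal numbers of sorted cells were pooled. Which hashtag marked which vector or day is not given in the sources used here, so no condition was compared with another, no p-value is given, and hashtags are described by number. Transcripts of the vectors or of the transgene cannot be told apart from those of the mouse Runx1 and Bcl2 genes.

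NK cells and the other innate lymphoid cells (ILCs) arise from lymphoid progenitors that can also enter the T lineage, and their programme is classically tied to Id2, Nfil3, Tox, Gata3, Zbtb16 and Tcf7. NK cells sense targets through paired activating and inhibitory receptors and kill with granzymes and perforin, with T-bet (Tbx21) and Eomes as their defining T-box factors. Notch signalling and Bcl11b steer progenitors toward the T lineage, and Runx factors act in both branches.

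The libraries held 9967 and 10556 cell barcodes. NK receptor-positive cells were shallower than the others, with medians of 17888 against 25324 UMIs in experiment 1 and 19840 against 26758 in experiment 2. Hashtag doublets, cells with more than 1 positive hashtag, made up 9.35% of them (10 cells) and 27.8% (54 cells), against 7.41% and 20.4% of the other cells. They were kept, and single-cell values stand beside marker sums and ratios to the other kept cells that differ from them by over 1.5-fold. Barcodes in common between the libraries numbered 39, 34 of them kept, and 3 NK receptor-positive cells of experiment 2 bore a barcode kept in experiment 1. No barcode was NK receptor-positive in both. Free RNA was gauged in single cells marked as granulocytes by at least 6 of 14 markers (140 cells in experiment 1 and 806 in experiment 2, medians 35615.5 and 35839.5 UMIs). Of those cells, 0.714% and 5.71% had a Klrd1 UMI, 6.43% and 9.55% a Klrk1 UMI, and 0% and 0.248% an Ncr1 UMI. A count of 0 among 107 or 194 sampled cells allows up to 2.80% or 1.55% of cells with a UMI in the population they were drawn from, and sets no limit on the cells that express a gene. With 1 library per experiment all intervals cover counting error only.

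The label of NK-like cells was met in part. Of 7 NK markers that the rule did not use (Klrb1c, Klre1, Eomes, Prf1, Gzmb, Nkg7, Ctsw), the summed level was 1393 against 469 counts per 1e+06 UMIs (CPM) in the other cells of experiment 1, and 2077 against 481 CPM in experiment 2. At least 4 of the 7 were detected in 42.1% of NK receptor-positive cells of experiment 1 and 69.6% of experiment 2, against 0.412% and 1.80% of the others. The markers that define mature NK cells most closely were in a minority: Eomes had a UMI in 10 of 107 and 61 of 194 cells, Klrb1c (NK1.1) in 8 and 58, and Tbx21 in 7 and 31. Granulocyte markers summed to 34.3 against 660 CPM in experiment 1 (21.1 CPM in the single cells), with 5 of 14 at 0. In experiment 2 they summed to 2096 against 5317 CPM, with none at 0, and to 68.6 CPM in NK receptor-positive single cells. Stromal markers were at 16.7 against 105 CPM in experiment 1, with 4 of 9 at 0. In experiment 2 they were at 607 against 892 CPM, with none at 0, and at 269 CPM in the single cells. At least 4 markers of either list were found in 16 cells of experiment 2 (11 doublets, 5 single cells; median 43473 UMIs) and in none of experiment 1. B-lineage markers were at 5.72 against 34.2 CPM and 24.95 against 137 CPM, the latter 8.80 CPM in NK receptor-positive single cells, with 6 and 4 of 9 at 0. Dendritic and erythroid marker sums were below those of the other cells in both experiments (conventional dendritic 474 against 655 and 1435 against 2019 CPM, plasmacytoid 243 against 542 and 288 against 581 CPM, erythroid and megakaryocyte 363 against 1724 and 365 against 1273 CPM). In NK receptor-positive single cells, erythroid and megakaryocyte markers were at 218 and 236 CPM, and plasmacytoid markers of experiment 2 at 185 CPM. Mature CD8 T-cell markers, the T-cell receptor segments Trbc1 and Trbc2 among them, summed to 1658 against 1197 and 1907 against 1345 CPM. The part of these cell types in the results below was not tested beyond the single-cell values.

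Of the receptors behind the rule, Klrk1 (NKG2D, an activating receptor) was detected in 104 of 107 cells of experiment 1 and 180 of 194 of experiment 2. Klrd1 (CD94, the partner chain of the NKG2 receptors) was found in 101 and 186 cells. Klrc1 (NKG2A, an inhibitory partner of CD94) was found in 61 and 145 cells, and Klrc2 (NKG2C, its activating counterpart) in 84 and 138. These near-identical paralogs share sequence, and the counting could split reads between them, so their separate levels are uncertain. Il2rb (CD122, the shared receptor chain for IL-2 and IL-15) was found in 98 and 180 cells. The remaining genes were found in fewer cells, above all in experiment 1. Xcl1, a chemokine of NK and activated T cells, had a UMI in 31 and 121 cells, and Ncr1 (NKp46) in 24 and 111. The levels were 365 against 5.69 CPM for Klrd1 in experiment 1 and 411 against 14.0 CPM in experiment 2, and 308 against 1.24 and 365 against 9.38 CPM for Klrk1. These values chose the cells and are given as a description. A single cell of experiment 2 held 431 of the 2074 Xcl1 UMIs there.

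**Figure D1:**
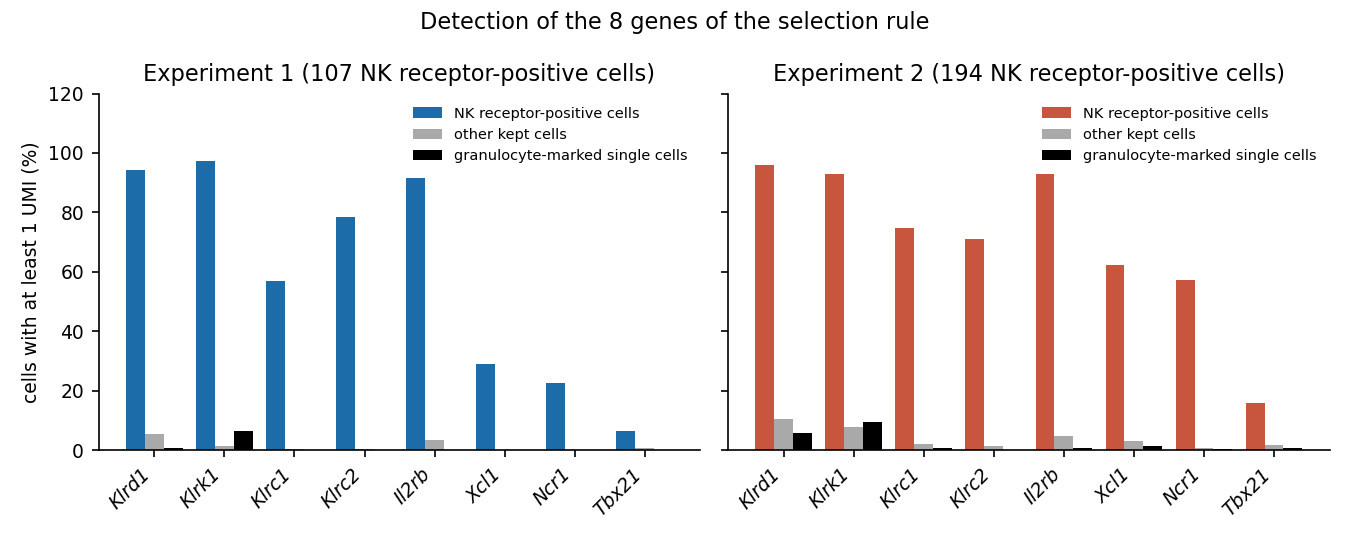
Share of cells (%) with at least 1 UMI of each of the 8 genes of the rule, for NK receptor-positive cells (coloured), other kept cells (grey) and granulocyte-marked single cells (black), by experiment. Klrd1, Klrk1 and Il2rb stand above 90% of NK receptor-positive cells in both experiments, while Ncr1 and Xcl1 differ between them.

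At the threshold of the rule, 51 cells of experiment 1 and 47 of experiment 2 had exactly 4 of the genes, and 35 and 83 cells had 3 and stayed outside. The former were at 399 and 323 CPM of Klrd1 and the latter at 303 and 192 CPM. For Ncr1 the values were 1.90 and 9.38 CPM just inside against 2.55 and 0.748 CPM just outside. Those of experiment 1 rest on 2 UMIs each. Both genes belong to the rule, so the choice of cells shapes these values. Outside the rule, Id2 was at 400 and 392 CPM just inside against 265 and 283 CPM just outside. Gata3 was at 223 and 106 against 197 and 71.4 CPM. Gzma (granzyme A) was at 2485 against 3273 CPM in experiment 1 and 2753 against 1121 CPM in experiment 2. All told, 6 to 8 genes of the rule were found in 17 cells of experiment 1 and 100 of experiment 2. The Cd8b1 clause left out 3 of 110 cells of experiment 1 that met the gene rule (2.73%) and 171 of 365 of experiment 2 (46.8%).

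The CD94 and NKG2 genes sit side by side on mouse chromosome 6 (GRCm38.p6, RefSeq): Klre1 at 129559365 to 129585828, Klrd1 at 129588092 to 129598775, Klrk1 at 129610323 to 129623903, Klrc2 at 129649602 to 129660737 and Klrc1 at 129666015 to 129682852. Ncr1 lies on chromosome 7 (4337715 to 4345184), Xcl1 on chromosome 1 (164931644 to 164935522), Il2rb on chromosome 15 (78479256 to 78511621) and Tbx21 on chromosome 11 (97098007 to 97115331). Since the study perturbed Runx factors, the 250 bases before the gene start were searched for the core Runx motif TGTGGT on both strands. RefSeq promoter windows matched 6 of the 8 genes of the rule, and 5 of these (all but Tbx21) held it. The windows of Ncr1 and Xcl1, whose detection differed most between the experiments, are shown with that of Tnni1, a leading gene outside the rule described later, 5′ to 3′ on the strand of the gene, with the motif or its reverse complement in capitals. Ncr1 is shown at chr7:4337465-4337714 (plus strand), Xcl1 at chr1:164935523-164935772 (minus strand) and Tnni1 at chr1:135799171-135799420 (plus strand, a start inside the annotated gene).
Ncr1: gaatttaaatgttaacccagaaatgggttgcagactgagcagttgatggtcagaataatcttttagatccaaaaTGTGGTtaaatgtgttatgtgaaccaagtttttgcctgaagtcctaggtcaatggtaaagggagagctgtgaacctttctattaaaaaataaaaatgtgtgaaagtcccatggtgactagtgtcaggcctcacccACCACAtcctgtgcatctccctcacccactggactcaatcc
Xcl1: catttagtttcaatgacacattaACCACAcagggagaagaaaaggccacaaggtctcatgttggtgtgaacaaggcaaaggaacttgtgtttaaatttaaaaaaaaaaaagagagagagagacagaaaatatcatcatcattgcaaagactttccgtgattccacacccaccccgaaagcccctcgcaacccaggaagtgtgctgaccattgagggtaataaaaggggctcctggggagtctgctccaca
Tnni1: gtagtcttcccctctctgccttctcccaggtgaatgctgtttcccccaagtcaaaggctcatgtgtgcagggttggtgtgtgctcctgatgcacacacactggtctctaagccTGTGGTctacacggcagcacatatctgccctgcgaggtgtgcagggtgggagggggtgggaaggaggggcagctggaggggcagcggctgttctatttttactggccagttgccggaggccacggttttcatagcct
The motif began 176 and 41 bases before the start in Ncr1, 227 bases before it in Xcl1 and 137 bases before it in Tnni1. It was in 14.0% of all 32851 windows and in 12.6% (900 of 7138) of the genes compared in both experiments. Among genes at least 2-fold higher in NK receptor-positive cells in both experiments, 39 of the 175 with a window held it (22.3%), and among genes at least 2-fold lower 33 of 257 (12.8%). The T-box core TCACAC, searched likewise and able to overlap a Runx match at its end letters, was in 12.3% of all windows, in 10.9% of genes compared, in 16.0% (28 of 175) of the higher genes and in 15.2% of the lower genes. A match shows only that these letters are present. Ncr1 and Tnni1 each had a second RefSeq window, not shown, that also held the Runx motif.

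The share of NK receptor-positive cells differed among the hashtags. Among the 8603 single cells of experiment 1, the shares for hashtags 1 to 8 were 0.792, 0.344, 0.525, 0.430, 1.14, 2.04, 2.28 and 1.74%, from 4 to 27 cells each (97 in all). Hashtags 6, 7 and 8 were the highest there. Among the 7822 single cells of experiment 2, the shares were 0.229, 0.200, 2.73, 2.27, 0.988, 2.15, 1.38 and 4%, from 2 to 39 cells each (139 in all). Hashtags 1 and 2 were the lowest there, with 2 cells each. The interval for hashtag 8 of experiment 2 was 2.86 to 5.43% and that for hashtag 2 was 0.0243 to 0.722%. The order within experiment 1 was not kept when every cell was thinned to 3000 UMIs: hashtag 7 went from 27 cells to 1 (0.0862%), and hashtag 5 was then highest with 5 cells (0.585%). In experiment 2 hashtags 3 and 4 remained high after thinning (1.53 and 2.02%) and hashtags 1 and 2 low (0.232 and 0.202%), while hashtag 5 had no cell (upper bound of the interval 0.413%). Whether the shares follow vector, day or culture cannot be told apart here.

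**Figure D2:**
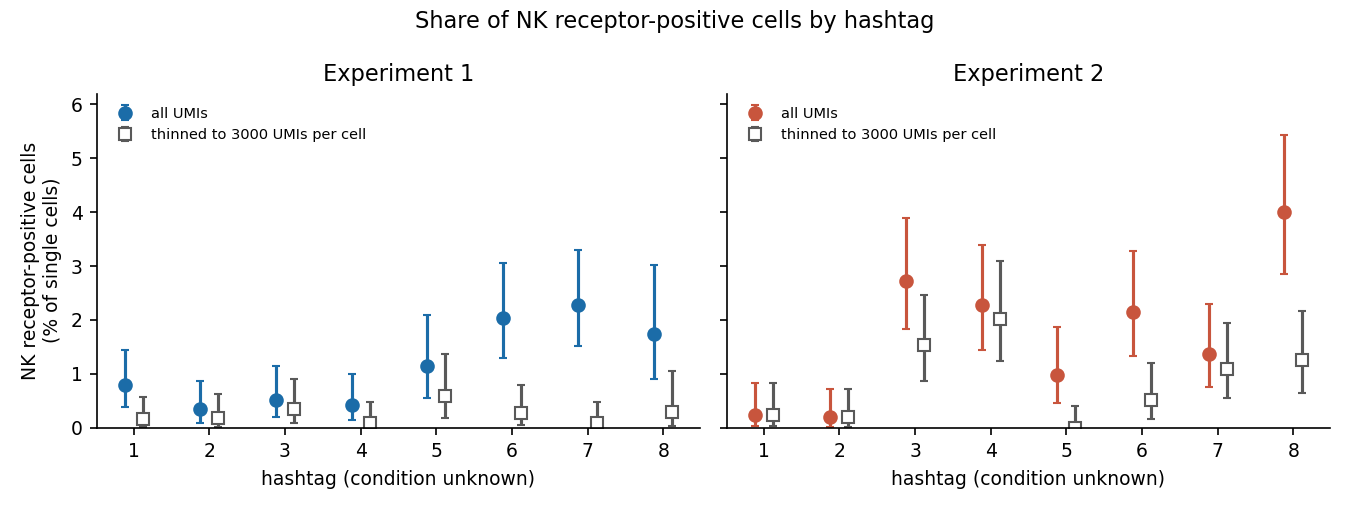
NK receptor-positive cells as a share (%) of the single cells of each hashtag, by experiment, before thinning (filled points) and after thinning each cell to 3000 UMIs (open squares), with exact 95% binomial intervals. Before thinning hashtag 8 of experiment 2 is highest at 4%. Hashtag 7 of experiment 1 falls from 2.28% to 0.0862% on thinning.

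For the comparison with the other kept cells, UMIs were summed over each group, and a gene was called higher or lower at a CPM ratio of at least 2 or at most 0.5. Genes entered when their level over all kept cells, the NK receptor-positive cells included, predicted at least 10 UMIs in the NK receptor-positive cells. Of 9012 genes compared in experiment 1, 406 were higher (4.51%) and 558 lower (6.19%). Of 10555 in experiment 2, 448 were higher (4.24%) and 789 lower (7.48%). The experiments called many genes alike: among the 9012 genes compared in both, 242 were higher in both (59.6% of those higher in experiment 1 and 82.0% of the 295 higher in experiment 2), 329 were lower in both, and 2 were higher in the one and lower in the other. Counts per gene list are read against these shares and against median ratios of 0.989 and 0.952 over all genes compared. The 8 genes of the rule were left out of every count. From the other cells alone, 6 of the 406 higher genes and 4 of the 448 would have missed the 10 UMIs, so they passed through the cells where they were high. Without the 16 cells of experiment 2 that held stromal or granulocyte markers, 1230 genes were lower there.

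NK and ILC receptors outside the rule were mostly higher. In experiment 1, 6 of the 8 listed receptor genes compared were higher and 1 was lower, with a median ratio of 4.02; in experiment 2, 8 of 11 were higher and 1 lower, with a median of 3.74. Cd160, an activating receptor of NK and intraepithelial cells, was at 452 against 50.2 CPM in experiment 1 (ratio 9.01, interval 8.45 to 9.60) and at 514 against 47.8 CPM in experiment 2 (10.8, interval 10.3 to 11.2). It was detected in 104 of 107 and 186 of 194 cells and was above the other cells of the same hashtag in all 7 and all 6 hashtags with at least 5 NK receptor-positive cells. Cd7, an early lymphoid surface protein, was at 208 against 53.0 CPM and 438 against 77.9 CPM (3.92- and 5.62-fold). Pdcd1 (PD-1), an inhibitory receptor, was 14.2- and 9.66-fold higher, and Lag3, another, 4.13- and 3.55-fold higher. The lower gene was Ly6c2, at 2.20 against 6.42 CPM and 4.30 against 20.9 CPM. Several receptors were too rare in the other cells to be compared: Klre1, an NK receptor gene next to Klrd1, had 63 and 225 UMIs in 33 and 107 NK receptor-positive cells, and Klrb1c had 15 and 173 UMIs. Of the Ly49 genes, which belong to a family of near copies and are uncertain one by one, Klra5 had 28 and 180 UMIs in 10 and 36 cells, and Klra8 and Klra10 had none.

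Signalling partners of these receptors were higher in part. Of 16 adaptor and kinase genes compared in experiment 1, 7 were higher and 1 lower (median 1.85), and of 18 in experiment 2, 11 were higher and 1 lower (median 2.52). Fcer1g, the FcRγ adaptor that carries NKp46 signals, was at 865 against 310 CPM and 893 against 317 CPM (2.80- and 2.82-fold). Hcst (DAP10), the adaptor of NKG2D, was at 49.3 against 23.9 CPM and 81.5 against 32.6 CPM, 2.06- and 2.50-fold higher. Tyrobp (DAP12), which is also a myeloid adaptor, did not reach 2-fold, at 577 against 509 CPM and 896 against 642 CPM. Cd247, the CD3ζ chain, was 9.57- and 5.74-fold higher, and Txk, a kinase of T and NK cells, 11.0- and 10.4-fold. Syk was the lower gene in both experiments, at 17.2 against 35.3 CPM and 11.4 against 25.2 CPM, with ratios of 0.485 and 0.452, or 0.279 and 0.283 in single cells. Its T-cell relative Zap70 was scarce, with 7 UMIs in experiment 1 and 44 in experiment 2 (9.46 against 3.47 CPM).

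Granule genes differed among themselves. Gzmb (granzyme B) was at 656 against 113 CPM and 916 against 118 CPM (5.82- and 7.79-fold). It was above the other cells in all 7 hashtags of experiment 1 and 5 of 6 of experiment 2. In hashtag 4 of experiment 2 Gzmb was below them, at 320 against 533 CPM (ratio 0.600). Ctsw, cathepsin W of cytotoxic lymphocytes, was at 130 against 5.90 CPM and 280 against 10.7 CPM (22.1- and 26.1-fold). Gzma (granzyme A) was also present in the other cells, at 1776 against 1228 CPM in experiment 1 (1.45-fold) and 2864 against 1059 CPM in experiment 2 (2.71-fold). It was detected in 33.6% and 34.4% of granulocyte-marked cells against 81.3% and 86.1% of NK receptor-positive cells. Perforin (Prf1) was at 23.7 against 0.982 CPM in experiment 1, where it was below the level for comparison, and 9.58-fold higher in experiment 2, with a UMI in 27 and 54 cells. Nkg7, a granule membrane protein, was 1.55- and 2.11-fold higher. In all, 5 of 15 listed granule and death ligand genes were higher and 2 lower in experiment 1 (median 1.45), and 9 of 18 higher and 2 lower in experiment 2 (median 1.82). The lower genes were Serpinb1a, a protease inhibitor of neutrophils and other cells (0.163 and 0.255, in single cells 0.0951 and 0.120), and Fasl (0.261 and 0.133, in single cells 0 and 0.0693). Tnfsf10, the death ligand TRAIL, was 3.20- and 3.54-fold higher.

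The ILC transcription factors held the largest number of higher genes. Of 21 compared in experiment 1, 14 were higher and 3 lower (median 2.81), and of 22 in experiment 2, 13 were higher and 3 lower (median 2.18). Id2, the E-protein inhibitor required for ILC development, was at 485 against 44.4 CPM and 458 against 71.8 CPM (10.9- and 6.38-fold), and was found in 103 of 107 and 185 of 194 cells. Tox was 8.08- and 5.14-fold higher, Ahr, a ligand-activated factor of ILCs, 12.1- and 6.30-fold, and Nfil3, needed for NK development, 4.67- and 3.21-fold. Klf2, a regulator of lymphocyte trafficking, was 12.1- and 8.09-fold higher. Zbtb16 (PLZF), a factor of ILC precursors, was at 68.2 against 13.0 CPM in experiment 1 and 25.6 against 7.49 CPM in experiment 2 (5.26- and 3.42-fold), with a UMI in 52 of 107 and 59 of 194 cells. By hashtag, Zbtb16 was above the other cells in all 7 of experiment 1 and 4 of 6 of experiment 2. Its ratio was 0.190 in hashtag 4 and 0.905 in hashtag 7 of experiment 2. Lef1 was at 97.2 against 5.85 CPM and 51.4 against 8.97 CPM (16.6- and 5.73-fold). Lef1 was above the other cells in all 7 hashtags and in 5 of 6, with a ratio of 0.326 in hashtag 7 of experiment 2. Its relative Tcf7, an early Notch target, was 1.64- and 1.46-fold higher, and Gata3 2.65- and 2.23-fold. The lower genes in both experiments were Bcl11b, the T-commitment factor (3.08 against 18.0 CPM and 6.24 against 27.6 CPM, ratios 0.171 and 0.226), Irf8 (0.326 and 0.394, the latter 0.256 in single cells) and Zeb2 (0.247 and 0.387, in single cells 0.163 and 0.225), which act in myeloid and dendritic cells among others.

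The genes that the study perturbed differed in direction. Runx3 was at 335 against 147 CPM in experiment 1 (ratio 2.27, interval 2.11 to 2.44) and 234 against 116 CPM in experiment 2 (2.02, interval 1.90 to 2.15). Runx1, vector transcripts included, was at 75.6 against 96.4 CPM (0.785, interval 0.672 to 0.912) and 42.2 against 72.2 CPM (0.584, interval 0.505 to 0.672), short of the 2-fold limit. Within hashtags, Runx3 was above the other cells in 5 of 7 and 6 of 6, and Runx1 below them in 6 of 7 and 6 of 6. Bcl2, transgene transcripts included, was 3.01- and 2.14-fold higher. Neither value speaks to the state of the vector or the guides in a cell.

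**Figure D3:**
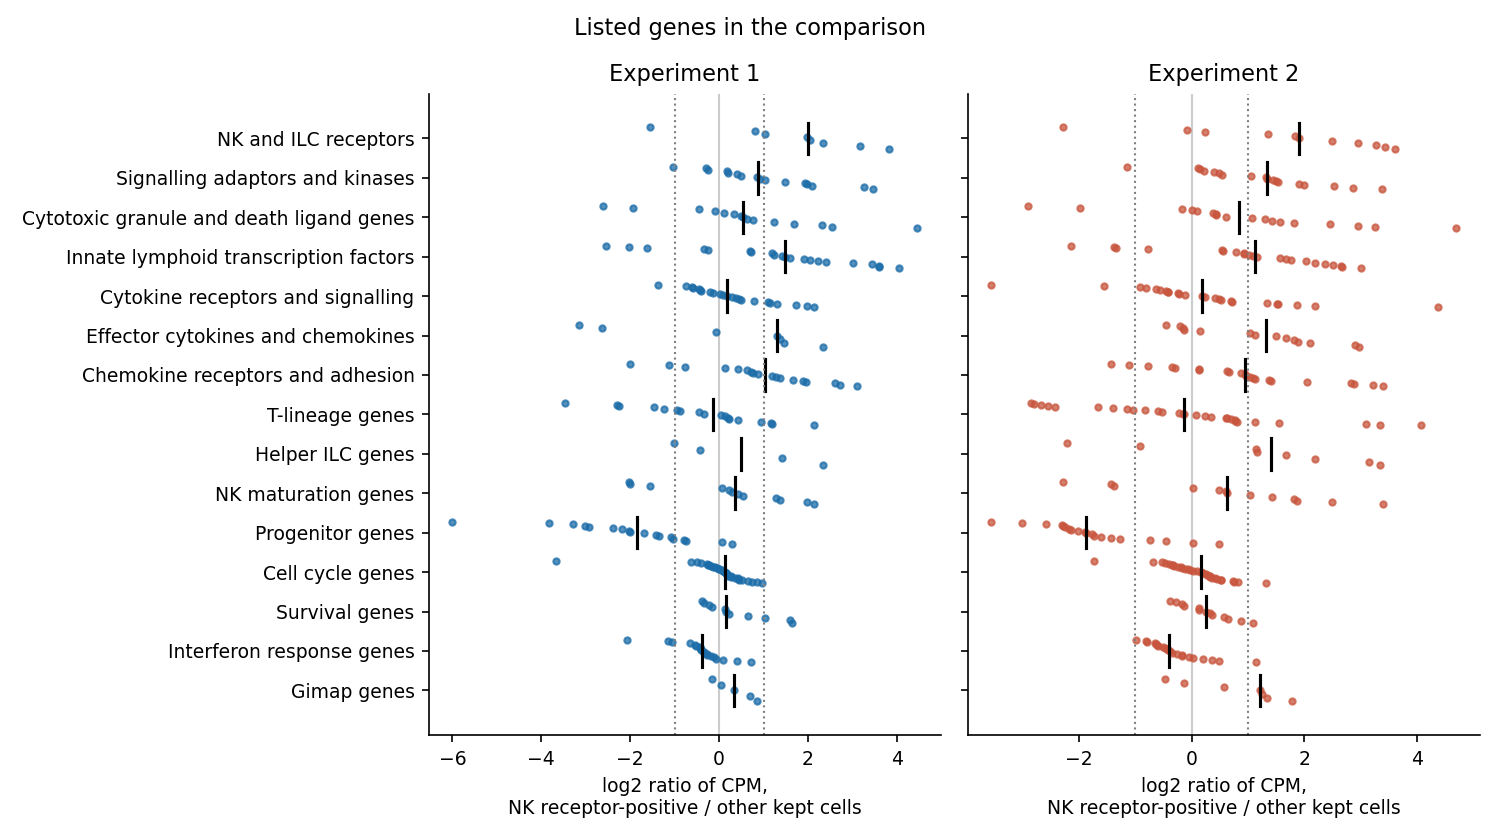
Ratio of CPM in NK receptor-positive cells over other kept cells (log2 axis) for every listed gene compared (points), by list and experiment, with the median of each list (black bar) and the 2-fold limits (dotted). Receptor and transcription factor lists lie mostly to the right and progenitor genes to the left in both experiments; cell cycle genes lie around 0.

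Cytokine receptors moved less as a list. Of 23 compared in experiment 1, 6 were higher and 1 lower (median 1.14), and of 25 in experiment 2, 6 were higher and 2 lower (median 1.14). Il18r1, a chain of the IL-18 receptor, was at 90.6 against 3.53 CPM in experiment 1, where it was below the level for comparison, and 85.4 against 4.12 CPM in experiment 2 (20.7-fold). Il7r was at 67.7 against 15.5 CPM and 65.2 against 17.7 CPM (4.37- and 3.68-fold), and the common γ chain Il2rg was 2.15- and 2.52-fold higher. Il2ra (CD25) differed between experiments, at 393 against 287 CPM and 135 against 146 CPM. Il21r was lower in both (0.383 and 0.340, the former 0.222 in single cells). Socs1, a feedback inhibitor of cytokine signalling, was 3.92- and 2.91-fold higher.

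Effector cytokine genes were mostly too rare for comparison: 7 of 23 listed genes entered in experiment 1 (4 higher, 2 lower) and 14 in experiment 2 (9 higher, none lower). Ltb, lymphotoxin beta, was at 120 against 46.2 CPM and 157 against 44.5 CPM (2.59- and 3.53-fold). Tnf was 2.77- and 3.73-fold higher, and Tnfsf11 (RANKL) 5.03- and 3.18-fold. Ifng, the signature cytokine of NK cells, had no UMI in experiment 1 and 31 UMIs in 17 cells in experiment 2, at 6.67 against 6.00 CPM (ratio 1.11, in single cells 0.643). The other cells of experiment 2 included 171 Cd8b1-positive cells that met the gene rule, whose much higher Ifng level is given below. The Ifng ratio without those cells was not computed. Il13, a cytokine of ILC2, had 37 UMIs in 4 cells and 60 in 13. Il22 had 12 UMIs in 1 cell of experiment 1 and none in experiment 2, and Il17a had none in either. Ccl5 differed between experiments, at 5.72 against 35.4 CPM in experiment 1 and 269 against 34.2 CPM in experiment 2. The latter ratio was 7.87 with doublets and 2.06 in single cells, and its UMIs came from 34 of 194 cells.

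Homing and adhesion genes were higher in 9 of 18 and 10 of 22 listed genes and lower in 2 in each experiment (medians 2.06 and 1.94). Ccr2, a chemokine receptor, was at 469 against 71.3 CPM and 295 against 41.6 CPM (6.57- and 7.10-fold). Itgae (CD103), an integrin of tissue-resident lymphocytes, was at 44.0 against 5.12 CPM and 47.8 against 5.15 CPM (8.59- and 9.28-fold). Cxcr5 was 3.87- and 4.14-fold higher, and Itgb7 2.60-fold in each. Cx3cr1 was at 40.9 and 43.2 CPM, against 3.59 and 4.09 CPM. Of genes tied to late NK maturation, Itgam (CD11b) was lower (0.250 and 0.373, the latter 0.210 in single cells), Klrg1 had 2 and 4 UMIs, and S1pr5 had none in either experiment, which allows up to 1.32 and 0.645 CPM. Itga2 (CD49b) had 21 and 26 UMIs in 19 and 24 cells. Of the NK maturation list as a whole, 4 of 12 and 6 of 13 were higher and 3 in each experiment lower. Helper ILC genes were rarely at a level for comparison, with 2 of 4 higher and 1 lower in experiment 1 and 6 of 8 higher and 1 lower in experiment 2.

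T-lineage genes were split. In experiment 1, 3 of 18 compared were higher and 5 lower (median 0.913), and in experiment 2, 5 of 29 were higher and 9 lower (median 0.915). T-cell receptor constant segments were present, though gene counts cannot tell whether these transcripts came before rearrangement. Trbc1 was at 814 against 358 CPM and 838 against 386 CPM (2.28- and 2.17-fold). It was the only higher gene of the mature CD8 T-cell markers, of 5 compared in experiment 1 and 9 in experiment 2. Trbc2, also among those markers, did not reach 2-fold. Tcrg-C4 was at 177 against 40.5 CPM and 182 against 61.9 CPM (4.37- and 2.95-fold). The Tcrg-C copies resemble each other, and reads may be split among them. Trdc was 2.26-fold higher in experiment 1 and 1.75-fold in experiment 2. Summed over all hashtags, the CD3 chains stayed within 2-fold, but Cd3g went both ways among the hashtags. Its ratio in single cells ran from 0.124 in hashtag 3 to 4.00 in hashtag 8 of experiment 1. In experiment 2 the Cd3g ratio ran from 0.123 in hashtag 4 to 3.03 in hashtag 8. Cd3d was at 14.5 against 12.7 CPM and 73.4 against 57.6 CPM, Cd3g at 59.4 against 81.5 CPM and 169 against 189 CPM, and Cd3e at 2.20 against 3.14 CPM and 8.60 against 10.0 CPM. Trac was at 8.80 against 0.471 CPM in experiment 1, from 20 UMIs in 15 cells and below the level for comparison, and at 13.8 against 8.08 CPM in experiment 2 (ratio 1.70). No UMI of Trac, Cd3d, Cd3e or Cd3g was found in 57 of 107 cells of experiment 1 and 71 of 194 of experiment 2. Cd28, a co-stimulatory receptor, was at 100.3 against 1.27 CPM in experiment 1, below the level for comparison, and 80.0 against 4.76 CPM in experiment 2 (16.8-fold). Icos, a relative of Cd28, was at 31.2 against 1.60 CPM and 36.1 against 3.53 CPM, with a ratio of 10.2 in experiment 2. Notch1 and its target Hes1 were below the other cells, at ratios of 0.516 and 0.379 for Notch1 (the latter 0.222 in single cells) and 0.423 and 0.562 for Hes1. Ly6d, a lymphoid progenitor marker, was lower (0.204 and 0.157, in single cells 0.0225 and 0.0565), as was Dntt (0.209 and 0.170, in single cells 0.117 and 0.0811). Cd4 had no UMI in either experiment.

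Progenitor genes were mostly lower. In experiment 1, 14 of 18 compared were lower and none higher (median 0.278), and in experiment 2, 16 of 20 were lower and none higher (median 0.272). Cd34 was at 27.7 against 145 CPM and 34.2 against 125 CPM (0.191 and 0.275, in single cells 0.108 and 0.130). Lmo2 was at 6.60 against 53.5 CPM and 13.6 against 64.5 CPM (0.123 and 0.210, the former 0.0508 in single cells). Bcl11a (0.221 and 0.226, in single cells 0.135 and 0.105), Mef2c (0.247 and 0.301) and Lyl1 (0.308 and 0.205, in single cells 0.194 and 0.114) were likewise lower. Spi1 (PU.1), the myeloid and early progenitor factor, was at 62.9 against 162 CPM and 77.2 against 207 CPM (0.389 and 0.373, the latter 0.210 in single cells), and Myb at 146 against 310 CPM and 67.1 against 162 CPM. Kit, by which the sorted stage is defined in the labels, was not lower, at 83.6 against 68.4 CPM and 48.2 against 34.2 CPM.

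Cell cycle genes gave 33 compared in each experiment with none higher and 1 lower in experiment 1 and 1 in each direction in experiment 2 (medians 1.09 and 1.13). The lower gene was Ccnd1 (0.0790 and 0.302, in single cells 0.0166 and 0.131). Interferon response genes were at medians of 0.772 and 0.757, with 3 of 20 lower in experiment 1 and 1 of 22 higher in experiment 2. Gimap genes, GTPases of lymphocytes, were higher in none of 5 in experiment 1 and 4 of 7 in experiment 2. Survival genes were higher in 3 of 11 and 1 of 13, Bcl2 among them in both.

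The genes with the highest ratios outside the rule were 9130015A21Rik and Tnni1. The former, an uncharacterised locus on chromosome 12 (35672290 to 35695118), was at 796 against 2.63 CPM in experiment 1 (303-fold, interval 277 to 332) and 518 against 4.93 CPM in experiment 2 (105-fold, interval 98.3 to 112). It was detected in 94 of 107 and 116 of 194 cells, against 1.43% and 2.23% of granulocyte-marked cells. In experiment 1 this gene and Tnni1 entered only through the NK receptor-positive cells, since the other cells predicted 5.98 and 6.05 UMIs, so their rank there is a description. Tnni1 on chromosome 1 (135783033 to 135810989), which encodes the slow skeletal troponin I, was at 318 against 2.66 CPM (119-fold, interval 107 to 133) and 283 against 2.31 CPM (123-fold, interval 112 to 135). It was found in 98 and 165 cells, against 0% and 0.124% of granulocyte-marked cells. Both were above the other cells in all 7 and all 6 hashtags. They were not confined to the NK receptor-positive cells. In the 35 and 83 cells with exactly 3 genes of the rule and no Cd8b1 UMI, counted among the other cells, both were present. There 9130015A21Rik was at 364 and 179 CPM and Tnni1 at 109 and 67.7 CPM. Of the 15 genes with the highest ratios per experiment, 8 were shared: besides these, Lgals3 (113- and 19.0-fold), Tnfrsf9 (4-1BB, 35.9- and 22.8-fold), Ms4a4b (30.7- and 16.1-fold), Ctsw, Inpp4b (16.3- and 14.1-fold) and Pdcd1. Of the 10 with the lowest ratios, 4 were shared, namely Prtn3 and Ctsg of neutrophil granules, Lmo2 and Angpt1. Prtn3 was at 6.60 against 228 CPM and 26.9 against 344 CPM, a ratio of 0.0782 in experiment 2 and of 0.0169 in single cells. In single cells the ratio of Ctsg went from 0.0993 to 0.0480 and from 0.126 to 0.0306, and that of Angpt1 from 0.160 to 0.0373 and from 0.204 to 0.0618. S100a8 was at 0.440 against 69.9 CPM in experiment 1, and its ratio in experiment 2 was 0.400 with doublets included and 0.0103 in single cells.

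NK receptor-positive cells were not uniform, and they were split by an Ncr1 UMI, all hashtags together. Cells with an Ncr1 UMI (24 in experiment 1 and 111 in experiment 2) were set against those without (83 in each), at medians of 16125.5 against 19117 and 18619 against 22450 UMIs. Eomes was at 17.7 against 4.39 CPM in experiment 1 (ratio 4.02, interval 1.32 to 12.3) and 63.5 against 2.66 CPM in experiment 2 (23.9, interval 10.7 to 66.1). Of cells with an Eomes UMI, 4 of 10 and 55 of 61 had an Ncr1 UMI, and of those with a Klrb1c UMI 6 of 8 and 55 of 58. Zbtb16 went the other way, at 15.5 against 81.3 CPM (0.190, interval 0.0752 to 0.402) and 18.0 against 33.7 CPM (0.533, interval 0.358 to 0.785). Of the 52 and 59 cells with a Zbtb16 UMI, 4 and 22 had an Ncr1 UMI. Those shares compare cells within a library and depend on detection. Car2, Krt83 and S100a4, named below, are outside the gene lists and were chosen after their values were seen.

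Xcl1 was at ratios of 5.41 and 2.22, which the choice of cells can shape, since Xcl1 and Ncr1 both belong to the rule and a cell without Ncr1 had to reach 4 genes through the other 7. Genes outside the rule on the Ncr1-positive side in both experiments included Prf1 (5.42 and 2.11), Car2, a carbonic anhydrase (5.94 and 6.11), and Krt83, a keratin (3.07 and 3.95). Ctsw (2.38 and 3.53), Cd7 (1.80 in each), Tyrobp (1.77 and 1.82) and Itgae (1.81 and 2.18) lay there too. Lef1 (0.357 and 0.367), Runx1 (0.302 and 0.323), Spi1 (0.270 and 0.320) and Il2ra (0.451 and 0.446) lay on the other side. Krt83 came from few cells in experiment 1, 8 of 24 with an Ncr1 UMI and 10 of 83 without. In single cells Runx1 was at 0.103 and 0.214, Spi1 at 0.0458 and 0.0497 and Il2ra in experiment 1 at 0.281. Runx3 was at ratios of 0.702 and 0.764. The hashtags themselves differed in Ncr1 and in these genes. In single cells of experiment 1, Ncr1 was at 12.1 and 14.3 CPM in hashtags 7 and 8, where Runx1 was highest. Ncr1 was highest in hashtag 3, at 157 CPM, where Runx1 had no UMI. In experiment 2 both were lowest in hashtag 5. A difference by Ncr1 cannot be told apart from one between hashtags here, and no split within hashtags was made. The genes that led the comparison with other cells were mixed. 9130015A21Rik was at ratios of 0.854 (interval 0.754 to 0.965) and 0.469 (interval 0.431 to 0.511), and Lgals3 at 2.49 and 1.06. Cd160 was at ratios of 1.08 and 1.07, with intervals of 0.928 to 1.26 and 0.989 to 1.16. Id2 was at 0.920 and 1.16 and Tnni1 at 1.03 and 1.06. Gzmb was lower with Ncr1 in both experiments, at ratios of 0.457 (interval 0.383 to 0.540) and 0.702 (interval 0.661 to 0.747). Gzma changed sides, with ratios of 0.586 in experiment 1 and 1.58 in experiment 2.

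**Figure D4:**
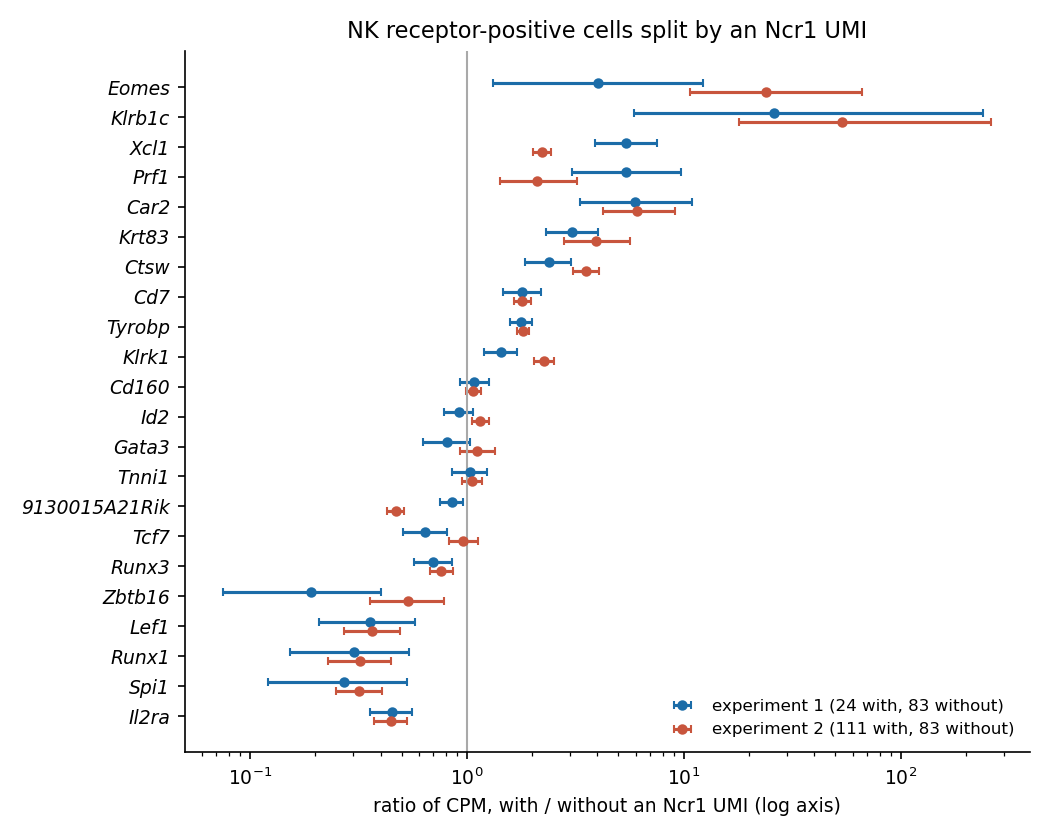
Ratio of CPM (log axis) between NK receptor-positive cells with and without an Ncr1 UMI, with exact 95% counting intervals, for experiment 1 (24 with, 83 without) and experiment 2 (111 with, 83 without). Eomes and Klrb1c lie furthest to the right in experiment 2; Zbtb16, Lef1, Runx1, Spi1 and Il2ra lie to the left in both, and Cd160 and Tnni1 lie near 1.

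Levels within NK receptor-positive single cells also differed by hashtag, among hashtags with at least 5 of them. Runx1 was at 27.1, 0, 60.1, 11.9, 10.0, 167 and 115 CPM in hashtags 1 and 3 to 8 of experiment 1, and at 9.62, 11.4, 8.34, 72.6, 27.4 and 82.6 CPM in hashtags 3 to 8 of experiment 2. It was highest in hashtags 7 and 8 of experiment 1 and in hashtags 6 and 8 of experiment 2. The other cells lay between 36.8 and 242 CPM in experiment 1 and between 36.3 and 122 CPM in experiment 2, with hashtags 7 and 8 and hashtags 6 and 8 again the highest. Runx3 was at 343, 44.9, 24.1, 280, 314, 477 and 544 CPM in the same hashtags of experiment 1, and 221, 71.4, 329, 371, 290 and 282 CPM in those of experiment 2. It was low in hashtags 3 and 4 of experiment 1 and hashtag 4 of experiment 2. The other cells were also lowest in these hashtags, at 113 and 118 CPM in experiment 1 and 68.4 CPM in experiment 2, where they were level with the NK receptor-positive cells. Over all these hashtags the other cells reached 174 CPM in experiment 1 and 136 CPM in experiment 2. What these hashtags received was not inferred from the levels.

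Gzmb was at 352, 247, 289, 286, 873, 943 and 887 CPM in experiment 1, higher in hashtags 6 to 8 than in the rest, and at 818, 320, 1525, 2021, 384 and 1156 CPM in experiment 2. Gzma had another pattern, with its lowest value at 391 CPM in hashtag 8 of experiment 1 and at 366 CPM in hashtag 6 of experiment 2, and its highest at 4209 and 5216 CPM in hashtags 3 and 7. Xcl1 lay between 4.77 and 427 CPM across the hashtags of experiment 1, and between 57.6 and 1244 CPM across those of experiment 2. 9130015A21Rik was at 1033, 269, 132, 1304, 663, 1053 and 1116 CPM in experiment 1 and at 673, 31.4, 513, 1072, 762 and 789 CPM in experiment 2. Its low values were in hashtags 3 and 4 and in hashtag 4, where Runx3 was also low. Tnni1 varied less, from 213 to 441 CPM and from 163 to 444 CPM, and Id2 from 445 to 750.1 CPM and from 434 to 664 CPM. A hashtag of 5 or 6 NK receptor-positive cells rests on few UMIs. Apart from a search for far hashtags, given below, no test between hashtags was made.

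**Figure D5:**
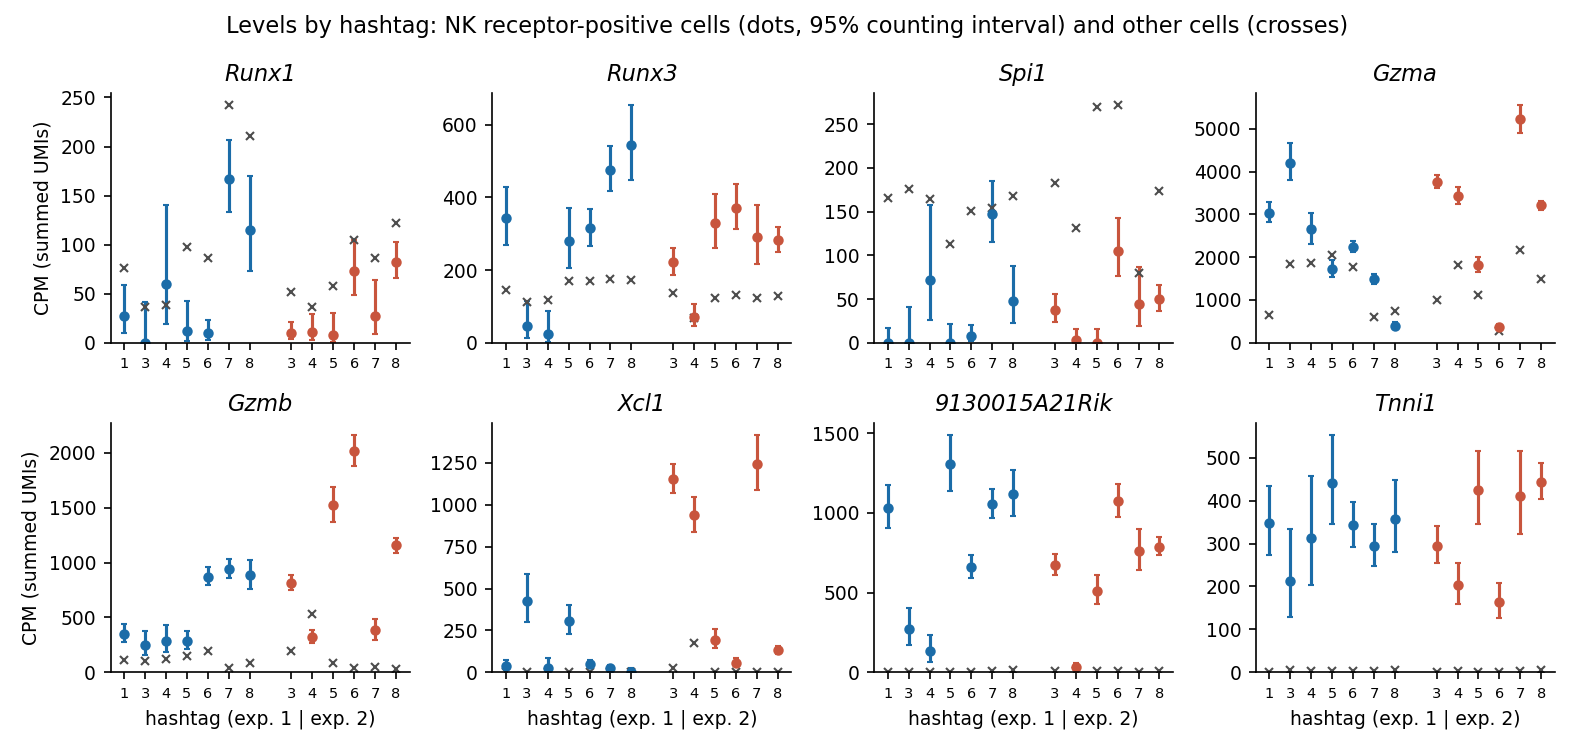
CPM of 8 genes (linear axes) in NK receptor-positive single cells by hashtag (dots with exact 95% counting intervals; experiment 1 blue, experiment 2 red) and in the other single cells of the same hashtag (crosses). Runx3 and 9130015A21Rik are low in hashtags 3 and 4 of experiment 1 and in hashtag 4 of experiment 2, while Tnni1 stays above the other cells in every hashtag.

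The cells nearest by the rule were those that met it but carried Cd8b1, 171 in experiment 2, with a median of 28935 UMIs. Klrd1 was at 411 CPM in NK receptor-positive cells against 234 CPM in these (ratio 1.76, interval 1.64 to 1.88), and Il2rb was at 187 against 183 CPM. The T-cell receptor complex separated the groups: Cd3d was at 73.4 against 696 CPM, Cd3e at 8.60 against 197 CPM, Trac at 13.8 against 298 CPM and Zap70 at 9.46 against 96.1 CPM. Cd8a, a partner of the excluded Cd8b1, was at 1.51 against 363 CPM. Effector genes were lower in NK receptor-positive cells, with Ifng at 6.67 against 274 CPM, Gzmc at 136 against 2303 CPM, Gzmb at 916 against 2415 CPM and Xcl1 at 446 against 1094 CPM. Fcer1g (893 against 145 CPM), Tyrobp (896 against 154 CPM), Id2 (458 against 91.7 CPM), S100a4 (2397 against 140 CPM) and Ccr2 (295 against 23.6 CPM) were higher. Tnni1 was at 283 against 2.75 CPM (ratio 103, interval 63.0 to 180) and 9130015A21Rik at 518 against 11.5 CPM (44.9, interval 35.2 to 58.1). Krt83 had 223 UMIs in NK receptor-positive cells and none in the Cd8b1-positive cells. Of the 47 NK receptor-positive cells of experiment 2 with exactly 4 genes of the rule, 4 had a Krt83 UMI.

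Other cells with a Zbtb16 UMI numbered 1698 in experiment 1 and 1302 in experiment 2. They are not taken as ILC precursors here, and their Id2, Bcl11b, Ly6d and Cd3g levels are given below. NK receptor-positive cells were within 2-fold of them in Gata3 (ratios 1.41 and 0.958) and Tcf7 (0.947 and 0.660). They were higher in Id2, at 485 against 32.0 CPM and 458 against 47.9 CPM (15.1- and 9.57-fold). Klf2 was 21.9- and 11.0-fold higher in NK receptor-positive cells, Lgals3 69.7- and 20.8-fold, S100a4 11.0- and 10.4-fold and Il7r 4.39- and 3.70-fold. Bcl11b was at 3.08 against 38.9 CPM and 6.24 against 61.5 CPM (0.0791 and 0.101), and Ly6d at 19.8 against 183 CPM and 14.6 against 144 CPM. Cd3g was at 59.4 against 185 CPM and 169 against 271 CPM. Both reference sets were deeper than the NK receptor-positive cells, with medians of 26132.5 and 27599.5 UMIs for Zbtb16.

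Between the experiments, which differed in days of culture and in library and cannot be told apart on those terms, NK receptor-positive cells of experiment 2 had more Xcl1 (446 against 69.0 CPM, 6.46-fold, interval 5.49 to 7.65), Ncr1 (137 against 31.2 CPM, 4.40-fold), Gzmc (7.55-fold), Cd2 (4.47-fold) and Cd3d (5.05-fold). Xcl1 and Ncr1 belong to the rule. All 5 genes were also higher in the other cells of experiment 2: Xcl1 at 25.2 against 0.318 CPM, Ncr1 at 0.945 against 0.0165, Gzmc at 54.9 against 1.11, Cd2 at 6.65 against 0.875 and Cd3d at 57.6 against 12.7 CPM. Those other cells included 171 Cd8b1-positive cells that met the gene rule in experiment 2, against 3 in experiment 1. Xcl1, Gzmc and Cd3d were high in the Cd8b1-positive cells, as given above, and the part of these cells in the difference was not tested. Ccl5, Lyz2 and Spp1 stood at 47.1-, 14.2- and 9.08-fold with doublets and at 9.80-, 3.25- and 4.33-fold in single cells, and the MHC class II genes H2-Aa and Cd74 at 5.12- and 4.38-fold, 3.26- and 2.76-fold in single cells. Lyz2 and Cd74 were also higher in the other cells of experiment 2 (232 against 23.9 CPM and 626 against 171 CPM). So were Spp1 (68.1 against 13.2 CPM) and H2-Aa (189 against 65.8 CPM), but not Ccl5 (34.2 against 35.4 CPM). Genes with lower levels in experiment 2 included Itga4 (105 against 364 CPM, ratio 0.290), Cpa3 (118 against 348 CPM, 0.339), Il2ra (135 against 393 CPM, 0.344) and Zbtb16 (25.6 against 68.2 CPM, 0.376). All 4 were also lower in the other cells of experiment 2, Itga4 at 134 against 235 CPM, Cpa3 at 107 against 149.6 CPM, Il2ra at 146 against 287 CPM and Zbtb16 at 7.49 against 13.0 CPM. Cpa3 is a mast cell protease that early progenitors also make: mast and basophil markers summed to 399.7 CPM against 230 CPM in the other cells of experiment 1, with 5 of 8 at 0, and to 142 against 286 CPM in experiment 2, with 4 of 8 at 0.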

How the data were processed

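The deposited mRNA and hashtag files hold raw UMI counts per gene or hashtag and cell barcode. The submitters' processing notes name Cell Ranger 3.0.0 and the builds mm10 and GRCm38. Roles and settings are not given in the sources used here. Gene counts were used for barcodes with 500 genes or more and mitochondrial UMIs below 10%. Hashtags were assigned with HTODemux of Seurat 5.3.0 in R 4.3.3 (positive quantile 0.99), and no doublet caller was run on the mRNA counts. UMIs were summed per group and divided by the group's total to give CPM. Ratios carry exact 95% conditional intervals and shares Clopper-Pearson intervals, and no p-value was computed, since hashtags could not be mapped to conditions. Genes were compared at 10 or more predicted UMIs and called at 2-fold. Cells were also thinned to 3000 UMIs. edgeR 4.0.16 and DESeq2 1.42.0 supplied scaling factors as alternatives to total UMIs. Other steps used Python 3.11.15, numpy 2.4.6, scipy 1.17.1, pandas 2.3.3 and matplotlib 3.10.9. Of these, only the 2-fold calls and the ratio intervals were tested on simulated data, as summed UMIs without spread between cells. Of 31053 gene IDs, 30934 matched the RefSeq name table. Promoter windows are RefSeq's (GRCm38.p6). The text names the genes of the rule, the listed genes, the 15 highest and 10 lowest ratios per experiment among genes of at least 50 CPM, and the 10 most different genes each way between experiments. The cells, lists and comparisons were chosen with earlier results of these data known.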

Additional observations from a re-analysis of the deposited data

Results flagged for a closer look

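By Dixon's gap rule, 6 of 74 sets of values by hashtag had a hashtag far from the others. The sets were genes within NK receptor-positive single cells, and shares. For normally distributed values about 1 in 20 sets pass the cutoff, a rate that does not hold for sparse counts. Ncr1 and Klrc1 also belong to the rule, so the flags are a description only. In experiment 1, Ncr1 was at 157 CPM in hashtag 3 against a median of 42.0 CPM over the hashtags, from 6 cells. Bcl11b was at 6.01 CPM (3 UMIs) in hashtag 6 of that experiment, against a median of 0 CPM. In hashtag 8 of experiment 2 Bcl11b was at 13.4 CPM (13 UMIs), against a median of 1.25 CPM. In experiment 2, Klrc1 was lowest in hashtag 5, at 138 CPM against a median of 189 CPM. Tyrobp was highest in hashtag 7, at 1836 CPM against a median of 848 CPM. Ly6d was highest in hashtag 8, at 15.5 CPM (15 UMIs) against a median of 0 CPM. Outside the kept cells, 7 of the 635 barcodes removed in experiment 1 met the gene rule (1.10%), as did 1 of the 342 removed in experiment 2.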

How the results depend on the processing

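No paired analysis was possible because the hashtags of the experiments could not be mapped to conditions, and no test of conditions was made. Shares were 1.52% and 2.71% of cells in experiments 1 and 2 with at least 3 genes, 0.600% and 1.44% with at least 5, 0.217% and 0.885% after thinning, and 0.611% and 0.695% for cells with no Cd3d, Cd3e, Cd3g or Trac UMI. Under a cell filter of 1000 genes and 5% mitochondrial UMIs, the share in experiment 1 was 0.811% and 23 listed genes were lower. Genes higher and lower numbered 22 and 64 in experiment 1 and 105 and 329 in experiment 2 after thinning, where fewer genes were compared (877 and 3354). They numbered 120 and 198, and 186 and 315, at 50 predicted UMIs, and 1788 and 914, and 1627 and 1314, with no filter. In experiment 2, 469 genes and 23 listed genes were lower with at least 3 genes, 1299 genes with the mean over cells, and 1230 without the 16 cells with stromal or granulocyte markers, an alternative added after seeing the data. Listed genes higher and lower in experiment 1 were 5 and 5 after thinning and 23 and 21 at 50 predicted UMIs, and 109 were higher with no filter. In experiment 2, 26 were higher after thinning, and 51 were higher and 22 lower at 50 predicted UMIs.

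Single cells alone gave, for experiments 1 and 2, shares of 1.13 and 1.78%, 420 and 457 genes higher, 576 and 999 lower, 54 and 75 listed genes higher and 36 and 46 lower. Leaving out each hashtag in turn among these single cells gave shares of 0.943 to 1.25% and 1.46 to 2.01% (lowest without hashtag 8), 362 to 422 and 368 to 458 genes higher, 503 to 576 and 880 to 1025 lower, 46 to 54 and 68 to 78 listed genes higher, and 31 to 40 and 42 to 51 listed genes lower. TMM and DESeq2 scaling moved the level of all genes by -0.06 and -0.05 (log2) in experiment 1 and 0.03 with both in experiment 2. Of 6158 gene ratios under an alternative, over 139 genes, 2089 fell outside the counting interval of the reported value, and 11 at least 2-fold from 1 crossed it. The former included 225 of the 278 after thinning and 176 without hashtag 7, and 136 in single cells. Thinning also chose the NK receptor-positive cells anew, 20 in experiment 1 and 89 in experiment 2. After thinning, Lag3 and Tnf stood at a ratio of 0 (0 UMIs each in these cells) and Ikzf2 at 0.787 (4 UMIs) in experiment 1. In experiment 2 Zbtb16 stood at 0.380 (1 UMI), Rora at 0 (0 UMIs), Ccl5 at 0.839 (12 UMIs) and Cd8a at 5.30 (16 UMIs). Ratios on 0 to 4 UMIs do not set a direction. Among cells of experiment 2 with no Cd3 or Trac UMI, S100a8 and S100a9 stood at 1.31, Zap70 at 0.595 and Ccl5 at 0.392. The cause was not tested. Depth limits rare genes: 3 UMIs in all NK receptor-positive cells amount to 1.32 CPM in experiment 1 and 0.645 CPM in experiment 2.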
